A study of Mus musculus with 2 samples.

Results

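The MYC and MAX network was followed here in mouse embryonic stem cells (mESCs) through 10 genes. These are the paralogs Myc, Mycn and Mycl, their partner Max, the antagonists Mnt, Mxd3 and Mga, and the classic target genes Odc1, Ncl and Npm1. They were taken by symbol from the table of gene expression, and all 10 were found among its 18888 genes. RNA came from 46C mESCs, a mouse line, grown on gelatin at passages 21 to 24. PB mESCs carry the empty PiggyBac vector, and PB-TERRA mESCs carry the same vector with telomeric repeats, from which polyadenylated TERRA, the noncoding RNA of telomeres, is overexpressed. Each condition has 1 library, so no difference has a replicate check and no p-value is given, and the sources used here do not say whether the cultures were clones or pools. The comparison asks which genes differ between PB-TERRA and PB mESCs.

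MYC proteins are transcription factors that must pair with MAX to bind DNA, at a short element called the E-box. MNT, the MXD proteins and MGA also pair with MAX, and by doing so they compete with MYC and repress. MYC drives growth genes, among them those of ribosome production and polyamine synthesis, and mESCs are known for their reliance on Myc and Mycn in self-renewal and proliferation.

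Promoters of the members are shown because the E-box is the element that MYC and MAX bind. The RefSeq promoter table of GRCm38.p6 (250 bases before to 50 after a start site) held 8 of the 10 members; Myc and Npm1 were not among them. The palindromic E-box CACGTG was found in Mnt and Max, 2 of 8 members with 1 window each, against 7.15% of 32851 promoters and 12.3% of 9473 genes past the filter of 1 FPKM with any of their windows. A variant, CACGCG, searched on both strands, was found in Odc1, Mga and Mycl, 3 of 8 members, against 9.27% of promoters and 20.7% of those genes. Stretches around these motifs, 5′ to 3′ on the strand of the gene and with the motif in capitals, are given for Mnt (chr11:74830734-74830873, + strand), Max (chr12:76962246-76962348, - strand) and Odc1 (chr12:17544673-17544791, + strand).
Mnt: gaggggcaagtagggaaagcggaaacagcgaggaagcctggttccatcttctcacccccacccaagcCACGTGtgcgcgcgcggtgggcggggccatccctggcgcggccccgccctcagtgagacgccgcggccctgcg
Max: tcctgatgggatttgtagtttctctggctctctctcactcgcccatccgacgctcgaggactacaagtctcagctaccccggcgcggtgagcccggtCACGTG
Odc1: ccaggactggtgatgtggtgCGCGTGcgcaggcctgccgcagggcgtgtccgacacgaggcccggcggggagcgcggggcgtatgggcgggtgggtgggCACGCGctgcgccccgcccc
Distances are to the start site of the RefSeq window. In Mnt the E-box begins 123 bases before that start site, and in Max 3 bases before it, so that it spans that start. The variant lies 180 and 101 bases before the RefSeq start of Odc1, and is written CGCGTG where it was read on the other strand. The GENCODE gene starts used below differ from these (76962201 for Max and 17544794 for Odc1), so the distances depend on the annotation. The E-box of Max lies wholly before its GENCODE start. These matches describe the letters only.

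Levels are in FPKM, the number of fragments per length of gene and per amount of sequencing, and can so be set side by side between genes. Each change is the log2 of PB-TERRA over PB after 0.1 FPKM was added to both, and is too small for genes with a low level. Changes of sums and of ratios between genes were taken with nothing added. The interval beside a ratio is a 95% exact binomial interval of the estimated reads, which covers counting error only and no difference between cultures. The depth behind these reads was estimated as 24600000 in PB and 24800000 in PB-TERRA. Of the whole table, 12263 genes had at least 1 FPKM in 1 library or both. Across these genes the log2 ratio had a median of -0.0044 and an SD of 0.31. The mESC markers Pou5f1 (744.67 and 773.31 FPKM), Sox2 (133.91 and 144.88) and Nanog (186.41 and 173.37) were abundant in PB and PB-TERRA.

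All 10 members passed the filter of 1 FPKM. None of them (0 of 10) differed by 1 or more on the log2 scale, against 0.913% of all genes past the filter. An absolute log2 ratio of at least 0.2, which is a fold of 1.15, was reached by 3 of 10 members, against 25.1% of all genes. Myc was the 1 member higher by that much (11.6% of all genes were), and Mycn and Mycl were the 2 that were lower (13.6% of all genes were). Of the genes whose mean was 5 FPKM or more, and which vary less, 16.7% reached 0.2. The median log2 ratio of the members was 0.0083, close to that of all genes. The share of members past 0.2 is near the background and is no result in itself. All 3 of these members are MYC paralogs, and they did not go the same way.

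**Figure D1:**
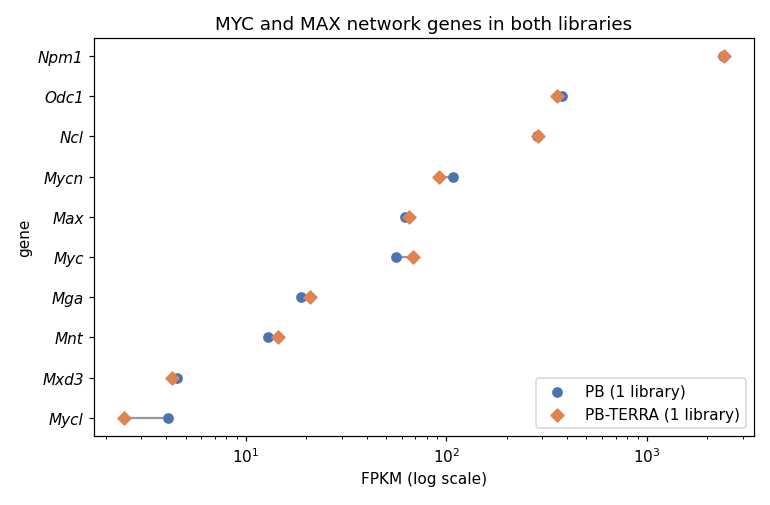
Level of each of the 10 members in FPKM on a log axis, with a circle for the PB library and a diamond for the PB-TERRA library, joined by a line. Npm1 lies highest, at 2396.58 FPKM in PB, and Mycl lowest, and the lines of Myc, Mycn and Mycl are the longest.

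Myc encodes the prototype MYC protein and lies on chromosome 15 (61985391 to 61990374, + strand, in the GENCODE M21 annotation of GRCm38). Its level was 56.25 FPKM in PB and 68.55 in PB-TERRA, from an estimated 3163 and 3886 reads. PB-TERRA was 1.22-fold higher (log2 ratio 0.28, interval 0.22 to 0.35). Of all genes past the filter, 6.48% had a higher ratio than Myc.

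Mycn encodes N-MYC, a paralog with strong expression in early embryos and stem cells, and lies on chromosome 12 (12936093 to 12941914, - strand). Its level was 108.38 FPKM in PB and 91.50 in PB-TERRA, from 6623 and 5637 reads. This is a log2 ratio of -0.24 (interval -0.30 to -0.19), and 9.99% of all genes had a lower one. Mycn was thus the more abundant paralog per length in both libraries and was lower in PB-TERRA, whereas Myc was higher.

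Mycl, which encodes L-MYC, lies on chromosome 4 (122995652 to 123002485, + strand) and was the scarcest member. PB had 4.10 FPKM of it and PB-TERRA 2.48, from 330 and 201 reads. Its log2 ratio of -0.70 (interval -0.99 to -0.47) was the lowest of the members, and 1.13% of all genes had a lower one. The whole interval lay below -0.2.

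**Figure D2:**
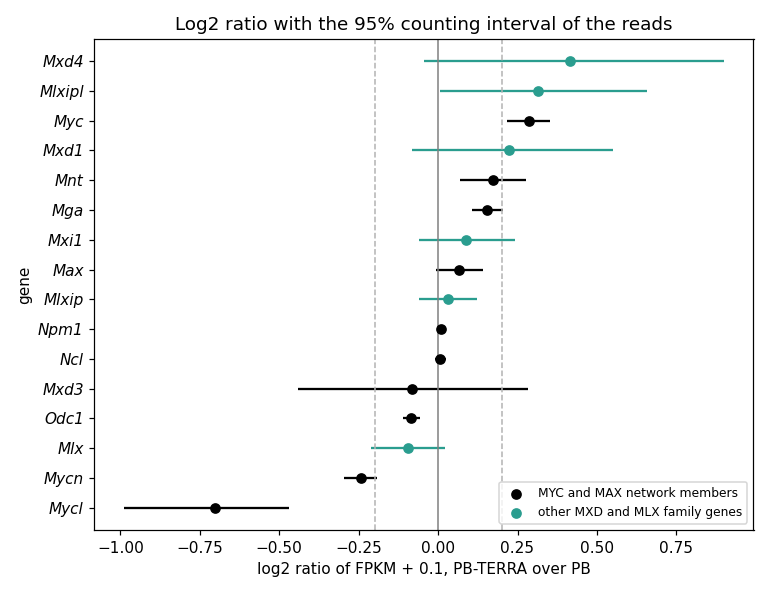
Log2 ratio (FPKM + 0.1) of PB-TERRA to PB for the 10 members (black) and of 6 further MXD and MLX family genes (green), with bars for the 95% counting interval of the reads and dashed lines at -0.2 and 0.2. Myc lies above 0.2 with its whole interval, Mycl lies below -0.2 with its whole interval, and Npm1 and Ncl lie within 0.01 of 0.

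Within each library the 3 paralogs can be set against each other, which no scaling between libraries changes. Myc made up 33.3% of their summed FPKM in PB and 42.2% in PB-TERRA. Mycn made up 64.2% and 56.3%, and Mycl 2.43% and 1.53%. Counted as reads, the share of Myc was 31.3% in PB (exact 95% interval 30.4% to 32.2%) and 40.0% in PB-TERRA (39.0% to 40.9%), so the intervals did not overlap. Per length, Mycn exceeded Myc 1.93-fold in PB and 1.33-fold in PB-TERRA. The ratio of Myc to Mycn was higher in PB-TERRA by 0.53 on the log2 scale (95% interval from the log odds of the reads 0.44 to 0.61). Mycl over Mycn changed by -0.48 (interval -0.74 to -0.22) and Mycl over Myc by -1.01 (-1.27 to -0.75).

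The sum of the paralogs moved far less than its parts. Together Myc, Mycn and Mycl came to 168.73 FPKM in PB and to 162.53 in PB-TERRA (log2 ratio -0.05). As reads these were 10116 and 9724, a log2 ratio of -0.07 (interval -0.11 to -0.03). A higher Myc thus stood beside a lower Mycn at nearly the same summed level.

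**Figure D3:**
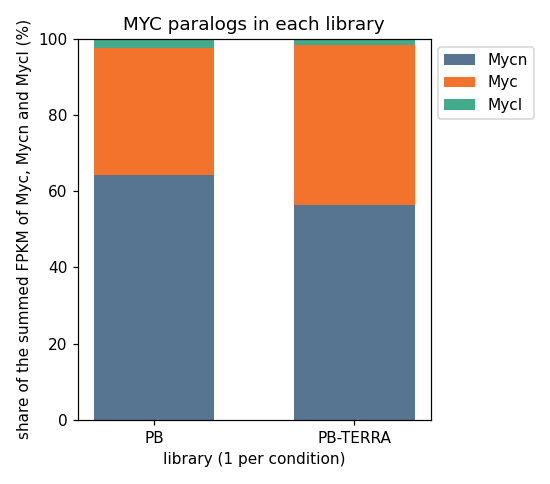
Share of Myc, Mycn and Mycl in their summed FPKM, in percent, stacked for the PB and the PB-TERRA library. The share of Myc is 33.3% in PB and 42.2% in PB-TERRA, and those of Mycn and Mycl are smaller in PB-TERRA.

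Max, the obligate partner of the MYC proteins and of their antagonists, lies on chromosome 12 (76937269 to 76962201, - strand). Its RefSeq promoter window holds the E-box shown above. The levels of Max were 62.09 FPKM for PB and 65.06 for PB-TERRA, from 2862 and 3024 reads. The log2 ratio was 0.07, and its interval, -0.0065 to 0.14, included 0. Summed MYC paralogs exceeded Max 2.72-fold in PB and 2.50-fold in PB-TERRA. The order of Max and Myc differed between the libraries. Myc stood at 0.906 times the level of Max in PB and at 1.05 times in PB-TERRA, a log2 change of 0.22 (interval 0.12 to 0.32).

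Mnt encodes the MAX-binding repressor that is found in most cell types, and lies on chromosome 11 (74830920 to 74845725, + strand). Its level was 12.87 FPKM in PB and 14.51 in PB-TERRA, from 1421 and 1615 reads (log2 ratio 0.17, interval 0.07 to 0.28). Mga encodes a large protein with both a T-box and a MAX-binding domain, which joins the Polycomb complex PRC1.6, and lies on chromosome 2 (119897228 to 119969581, + strand). Its levels of 18.82 FPKM (PB) and 20.96 FPKM (PB-TERRA) came from 6524 and 7325 reads, a log2 ratio of 0.15 (interval 0.11 to 0.20). Both were higher in PB-TERRA by less than 0.2, although Mnt reached 0.21 when both libraries were scaled to the same sum. With the trend of log2 ratio with gene length taken off, Mga had 0.08.

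Mxd3, an MXD repressor linked to proliferating cells, lies on chromosome 13 (55325168 to 55329823, - strand). It had 4.56 and 4.30 FPKM from 133 and 127 reads, a log2 ratio of -0.08 whose interval, -0.44 to 0.28, included 0. A difference was not detectable at this depth. One of its exons overlaps Prelid1 on the opposite strand, with which it shares 4.38% of its 50-base stretches, and the sources used here do not say whether strand was counted.

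Beyond these members, 6 further network genes were listed, all of them past the filter. In PB-TERRA 5 were higher, where 48.6% of all genes were, and 1 was lower, with a median log2 ratio of 0.16. With a mean of at least 5 FPKM, 3 genes remained (Mlx, Mlxip and Mxi1), and the median was 0.03. Past 0.2 were 3 of 6, all higher, against 11.6% of all genes. Mxd4 had 2.54 and 3.42 FPKM (log2 ratio 0.42, interval -0.04 to 0.90), and Mlxipl, the carbohydrate-responsive factor ChREBP, had 1.63 and 2.05 (0.31, interval 0.0050 to 0.66). Mlx, the MAX-like partner, had 28.48 and 26.66 FPKM (-0.09) and Mlxip 10.94 and 11.18 (0.03). Of the 6 intervals, 5 included 0. Summed over Mxd1, Mxi1, Mxd3, Mxd4, Mnt and Mga, the antagonists reached 45.93 FPKM in PB against 50.95 in PB-TERRA. In reads, most of them from Mga and with no correction for the length trend, this is a log2 ratio of 0.15 (interval 0.11 to 0.19). Relative to Max the sum was 0.740 in PB and 0.783 in PB-TERRA, a difference without an interval. Taken singly over Max, each of the 6 antagonists had an interval of its change that included 0.

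Odc1 encodes ornithine decarboxylase, the first enzyme of polyamine synthesis and a textbook MYC target, and lies on chromosome 12 (17544794 to 17551505, + strand). PB had 377.52 FPKM of it and PB-TERRA 356.06, from 22614 and 21502 reads. The log2 ratio was -0.08 (interval -0.11 to -0.06), small beside the SD across genes, and -0.05 when the libraries were scaled to the same sum. Of the 50-base stretches of its longest coding transcript, 42.2% also occur in transcripts of 16 other annotated genes, so its value depends on how the counting divided reads. A gene model predicted by the authors and matched by them to ornithine decarboxylase, BGI_novel_G000625, had 389.03 and 380.96 FPKM (log2 ratio -0.03). It was looked up after its values were seen. Over the 4 rows with that match the reads summed to 29297 and 28081, a log2 ratio of -0.07 (interval -0.10 to -0.05).

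Ncl and Npm1 encode nucleolin and nucleophosmin, abundant proteins of the nucleolus, where ribosomes are made. Ncl (chromosome 1, 86344719 to 86359400, - strand) stood at 284.20 FPKM in PB and at 285.54 in PB-TERRA, from 56944 and 57678 reads. Its log2 ratio was 0.0068 (interval -0.0099 to 0.02). The table scales Ncl to a length of 8257 bases, which lowers its FPKM if most of its transcripts are shorter. Npm1 (chromosome 11, 33152287 to 33163206, - strand) was the most abundant member, with 2396.58 FPKM in PB and 2412.99 in PB-TERRA, and 0.0734% of all genes had a higher level. Its reads were 74638 and 75760, a log2 ratio of 0.0098 (interval -0.0048 to 0.02). Of the Npm1 stretches, 40.9% occur in 11 other annotated genes, but Npm1 held 99.7% of the PB reads and 99.6% of the PB-TERRA reads of the 3 rows matched to nucleophosmin.

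Read against the counting interval alone, 3 members (Myc, Mga and Mnt) lay above 0, 3 (Mycn, Mycl and Odc1) lay below 0, and for 4 (Max, Mxd3, Ncl and Npm1) the interval included 0. This makes 6 of 10 on 1 side of 0, against 35.6% of all genes past the filter. Such intervals narrow with the number of reads, and of all genes 6.47% had a higher level than Mycn and 33.5% a higher level than Mga.

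**Figure D4:**
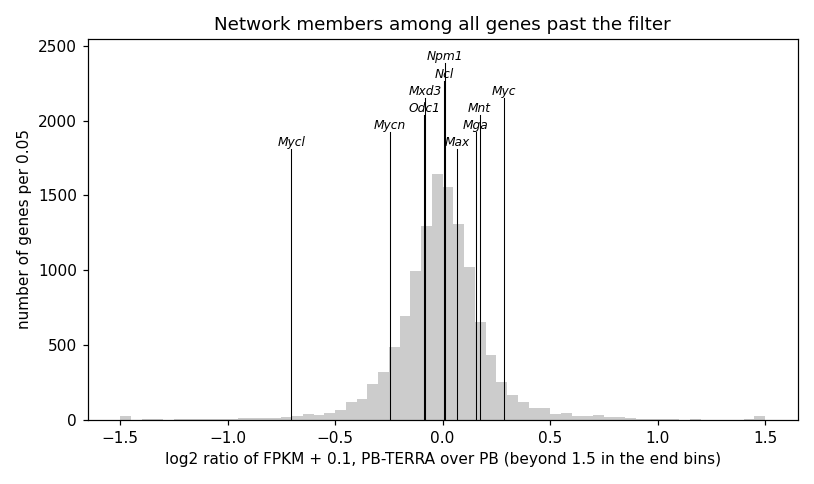
Number of genes per 0.05 of log2 ratio (PB-TERRA to PB, FPKM + 0.1) for the 12263 genes past the filter, with the 10 members marked by lines. Mycl stands in the lower tail at -0.70, Mycn and Myc on the flanks at -0.24 and 0.28, and the other 7 members within 0.2 of 0.

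Cofactors that MYC recruits to chromatin had 0 of 16 genes past 0.2, against 25.1% of all genes and 16.7% of those with a mean of 5 FPKM or more, and their median log2 ratio was -0.02. The lowest were Actl6a, a subunit of chromatin remodelers, with 92.06 and 83.79 FPKM (-0.14), and Dmap1 (-0.13, interval -0.26 to 0.00056). The highest were Bptf (0.13) and Brd8 (0.13). Genes that control the stability of MYC proteins had a median of 0.0075 over 15 genes. Past 0.2 were 2 of 15, against the same 25.1% and 16.7%. Fbxw7, the ubiquitin ligase subunit that marks MYC proteins for degradation, stood at 10.44 FPKM in PB against 13.65 in PB-TERRA (log2 ratio 0.38, interval 0.27 to 0.50). Usp28, a deubiquitinase known to counter FBXW7, had 29.09 and 24.55 FPKM, a log2 ratio of -0.24 (interval -0.32 to -0.17). Trpc4ap had a log2 ratio of -0.17, and C330027C09Rik, the table's symbol for the phosphatase inhibitor Cip2a, of 0.16.

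The PRC1.6 partners of MGA had 0 of 13 genes past 0.2, against 25.1% of all genes and 16.7% of those with a mean of 5 FPKM or more. Their median log2 ratio was 0.04. In sign 9 were higher, where 48.6% of all genes were, and 4 were lower. Scaled to the same sum, 2 were past 0.2, where 25.9% of all genes were, and 11 were higher, where 58.7% of all genes were. Cbx3, which encodes the heterochromatin protein HP1 gamma, had 113.83 and 130.16 FPKM (0.19), and Rybp had 59.41 and 67.84 (0.19). L3mbtl2, a defining subunit of the complex, had 47.77 and 46.17 FPKM (-0.05, interval -0.11 to 0.02), and Yaf2 5.24 and 4.71 (-0.15, interval -0.41 to 0.10).

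Growth genes that MYC is known to bind, numbered 45. Of these 1 was higher and 2 were lower past 0.2, that is 3 of 45, against 25.1% of all genes and 16.7% of those with a mean of 5 FPKM or more. In sign, 30 were lower and 15 higher, where 50.9% of all genes past the filter were lower, and the median was -0.04. Scaled to the same sum, which raises all genes by 0.04, 25 were lower and 20 higher, where 41.3% of all genes were lower, and the median was -0.0068 against 0.03 for all genes. Ldha, lactate dehydrogenase A, stood at 1066.52 FPKM in PB against 803.45 in PB-TERRA (log2 ratio -0.41, interval -0.43 to -0.39). Mrto4, a ribosome assembly factor, had 65.59 and 52.96 FPKM (-0.31, interval -0.41 to -0.21). At the other end stood Ccnd2, which encodes cyclin D2, with 1.93 and 2.41 FPKM (0.31, interval 0.08 to 0.55), and Tfb2m, a mitochondrial transcription factor (0.12, interval -0.02 to 0.27).

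Around Odc1, the polyamine list had 18 genes, of which 17 passed the filter. Their median log2 ratio was -0.0063, with 1 of 17 genes higher and 3 lower past 0.2, against 11.6% and 13.6% of all genes. Antxr1, an anthrax toxin receptor gene that is no polyamine enzyme although it was listed, was the lowest at -0.56. Without it, a choice made after seeing the data, 1 of 16 was higher and 2 were lower, with a median of -0.0032. Paox, the polyamine oxidase of the peroxisome, had 14.92 and 11.52 FPKM (-0.37, interval -0.55 to -0.20). Smox, spermine oxidase, had 4.63 and 5.37 (0.21), from 212 and 248 reads, and its interval, -0.06 to 0.49, included 0. Amd2 had a log2 ratio of 0.15 (interval -0.05 to 0.35). Around Ncl and Npm1, 18 of 19 nucleolar partners passed the filter, and 2 of 18 were past 0.2 (median -0.0057), against 25.1% of all genes and 16.7% of those with a mean of 5 FPKM or more. Nhp2, of the box H/ACA particles, had 213.00 and 184.03 FPKM (-0.21), and Npm3, a relative of Npm1, had 87.07 and 78.65 (-0.15). Rrn3, an initiation factor of RNA polymerase I, had a log2 ratio of 0.11. Mdm2, the ligase that restrains p53, had 46.03 and 58.51 (0.35, interval 0.28 to 0.41).

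Genes known to be repressed through MYC had a median log2 ratio of 0.09 over 12 genes, with 5 of 12 higher and 1 lower past 0.2, against 11.6% and 13.6% of all genes. Cdkn1c, which encodes the cell cycle inhibitor p57, stood at 27.72 FPKM in PB against 46.06 in PB-TERRA (0.73, interval 0.63 to 0.84). Gata6 had 1.22 and 2.26 FPKM (0.84, interval 0.52 to 1.27). Ndrg2 had 13.97 and 10.62 (-0.39, interval -0.56 to -0.23) and Ndrg1 6.96 and 6.30 (-0.14, interval -0.33 to 0.05). Gata6 is also a marker of primitive endoderm, an early extraembryonic lineage. With no filter, all 8 such markers were higher in PB-TERRA, where 47.6% of the 18888 genes were, and 7 of 8 were past 0.2, where 37.9% of those genes were in either direction. The filter was passed by 6 of them, and by Pdgfra (0.51 and 1.0 FPKM) only through PB-TERRA, where it was higher. Of the 2 with a mean of at least 5 FPKM, Lama1 and Dab2, 1 was past 0.2. The summed level of all 8 markers was 23.98 FPKM in PB and 29.28 in PB-TERRA, and none was listed at the floor of 0.01. The largest part of that sum was Lama1, a laminin chain, with 13.48 and 14.63 FPKM (log2 ratio 0.12). The part of such cells in the result was not tested, and in bulk RNA more cells of a type and more RNA per cell cannot be told apart. Fibroblast markers summed to 20.28 and 24.29 FPKM over 9 genes. Their sum was mostly Thy1 (9.16 and 8.39 FPKM, log2 ratio -0.13, interval -0.35 to 0.09) and the collagen gene Col1a1 (7.99 and 12.14, 0.60, interval 0.49 to 0.71). Of these, Col1a1 was higher in PB-TERRA, and the interval of Thy1 included 0. Col1a2 (0.53) passed the filter only through PB-TERRA. Neural markers summed to 86.73 and 74.57 FPKM over 7 genes, of which Dcx was at the floor in both libraries. The neural sum was mostly Tubb3 (57.66 and 51.48 FPKM, log2 ratio -0.16) and Nes (27.30 and 20.93, -0.38). Sox1, a marker of neural progenitors, had 1.06 and 1.56 FPKM (0.52, interval 0.19 to 0.94).

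**Figure D5:**
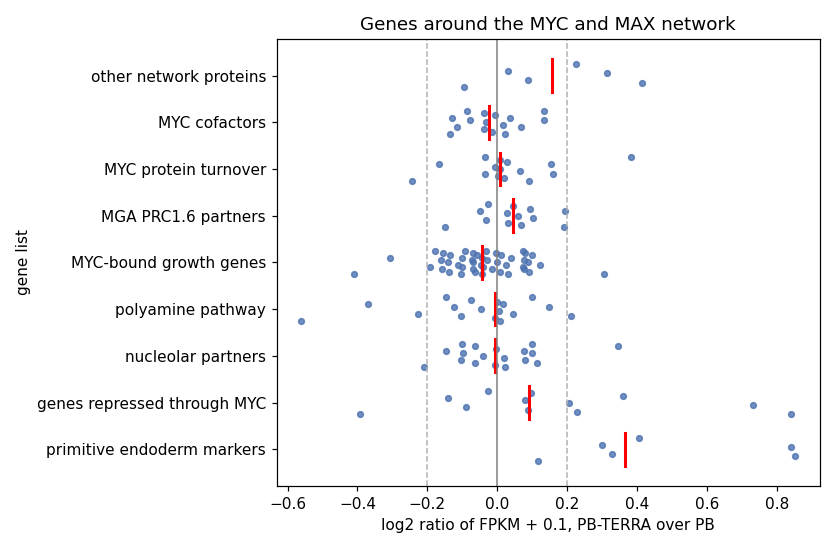
Log2 ratio (FPKM + 0.1) of PB-TERRA to PB for each gene past the filter (points, spread vertically for legibility) in 9 lists around the network, with the list median in red and dashed lines at -0.2 and 0.2. All cofactors and PRC1.6 partners and 42 of 45 growth genes lie within 0.2 of 0, and genes repressed through MYC and primitive endoderm markers extend to 0.84 (Gata6, in both lists) and 0.85 (Pdgfra, which passed the filter only through PB-TERRA).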

How the data were processed

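RNA-seq of 1 PB and 1 PB-TERRA library was compared, grouped by the labels. The authors deposited 1 table of 18888 genes with expression values that are taken here as FPKM, since the header gives no unit. The authors deposited them after scaling to length and sequencing depth, with 2 decimals and a lowest value of 0.01. HISAT, Cufflinks and mm9 are named in the submitters' processing notes, without versions. The table also holds the authors' own fold changes, p-values and calls, which were not used.

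Reads were estimated from FPKM, gene length and depth. Low values of genes of 300 to 1000 bases were fitted to whole reads, which took 112 bases off each length and gave depths of 24600000 and 24800000 reads. Of 547 PB and 574 PB-TERRA values under 8 reads, 81.7% and 83.8% lay within 0.15 of a whole read. Summed over genes, the estimated reads were 24630139 and 24820383.

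The members, lists and thresholds were chosen with earlier results of these data known. All members are named, and of each other list the 2 highest and 2 lowest log2 ratios past the filter of 1 FPKM; of the marker lists any gene may be named. Shared stretches of 50 bases were counted in GENCODE M21 transcripts (GRCm38) and promoters taken from RefSeq. The depth fit and intervals were tested on simulated data. Alternatives were the pseudocount, scaling, filter and a correction for gene length. Computations used scipy 1.17.1, pandas 2.3.3 and numpy 2.4.6 under Python 3.11.15, and figures matplotlib 3.10.9.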

Additional observations from a re-analysis of the deposited data

How the results depend on the processing

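No paired analysis was possible because each condition has 1 library, and for the same reason no library could be left out. Under 6 alternatives of pseudocount, scaling and length correction, 8 of the 10 members kept the sign of their log2 ratio in all 6. The exceptions were Ncl, from -0.05 to 0.04, and Npm1, from -0.00077 to 0.05. Myc ranged from 0.27 to 0.32, Mycn from -0.25 to -0.21 and Mycl from -0.72 to -0.55. Past 0.2 were 3 of 10 members, where 25.1% of all genes were. With the same column sum 4 of 10 were (Mnt at 0.21), where 25.9% of all genes were. With a mean of at least 5 FPKM, a filter that leaves out Mycl, 2 of 8 were, where 16.7% of all genes were. Another scaling shifted all genes by at most 0.04. The length trend (Spearman's rho 0.18 between length and log2 ratio across genes, which are not independent replicates) bears most on the longest member, Mga, whose lowest value was 0.08. The median of the growth genes ranged from -0.06 to -0.0068. With the same column sum, the medians of the cofactors (0.01), polyamine genes (0.03) and nucleolar partners (0.03) lay above 0 instead of below it, as did that of all genes (from -0.0044 to 0.03). The number of all genes past 1 depended on the settings, from 112 to 45 with a pseudocount of 1, 513 with no filter and 17 with a mean of at least 5 FPKM. The number past 0.2 went from 3082 to 7167 and 1442 with those filters. Counted as estimated reads in place of FPKM, Myc, Mycn and Mycl made up 31.3%, 65.5% and 3.26% in PB and 40.0%, 58.0% and 2.07% in PB-TERRA, since reads grow with gene length. Among the members, depth limits Mxd3 most.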

Other observations

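Promoters with the E-box CACGTG were compared with the others over all genes past the filter. Of 9473 genes with a RefSeq promoter, 12.3% (1161 genes) held CACGTG in at least 1 promoter window. Their median log2 ratio was -0.0079, and that of genes without the motif was -0.0047. An absolute log2 ratio of at least 0.2 was reached by 21.3% of the genes with the motif and by 23.0% of those without. Among the growth genes MYC is known to bind, 39 had a promoter, and 14 of these (35.9%) held the motif. In PB-TERRA 6 of the 14 were higher and 8 lower, with a median of -0.02, where 552 of all 1161 genes with the motif were higher. Of the 25 growth genes without it 6 were higher, with a median of -0.05, where 4024 of all 8312 genes without it were higher. Among the 14 growth genes with the motif, Ldha (log2 ratio -0.41), Cdk4 (-0.19) and Nme1 (-0.18) stood at the lower end. Set (0.08) and Wdr43 (0.08) stood at the upper end of these 14. These genes were named after their values were seen.

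The long noncoding RNA Pvt1, a neighbour of Myc on its chromosome, stood at 3.66 FPKM in PB against 4.54 in PB-TERRA. Its reads were 251 and 314, a log2 ratio of 0.30 (interval 0.07 to 0.56), beside 0.28 for Myc. Rpl19, the qRT-PCR control gene of the study, had 1466.58 and 1405.13 FPKM, a log2 ratio of -0.06 (interval -0.09 to -0.04). A predicted gene model matched to nucleophosmin, BGI_novel_G000061, had 10.99 and 15.20 FPKM (log2 ratio 0.46, interval 0.20 to 0.75), unlike Npm1 itself at 0.0098. The other model with that match, BGI_novel_G000785, had 0.32 and 0.22 FPKM from 9 and 6 reads (-0.39, interval -2.37 to 1.06). These models were looked up after their values were seen.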
